A study of Mus musculus with 4 samples.

Results

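Both cultures of bone marrow mesenchymal stem cells (MSC) were set against both control cultures, mouse embryonic stem (ES) cells and osteoblasts. All cells were of the C57BL/6 strain, and each culture was read on 1 array of total RNA, so the comparison used all 4 arrays of the series, 2 on each side. The MSC were plastic-adherent cells flushed from the femur and tibia and grown in Coon's modified F12 medium with fetal calf serum. One MSC culture was grown without and the other with basic fibroblast growth factor (bFGF) at 1 ng/ml. The osteoblasts came from the calvariae of newborn mice by sequential enzyme digestion, with cells of the last digestions pooled, and were grown in DMEM with fetal calf serum. For the ES cells the labels give the strain and the cell type, with no culture medium or feeder layer. Tissue of origin, isolation, medium and cell type therefore differed together between the sides and cannot be told apart. The osteoblast donors were newborn, no donor age is given here for the marrow cells, and a part of age was not tested. The control side holds different cell types and neither side holds replicates, so there was no replicate check, no SD and no test, and the values below are descriptions of these 4 arrays.

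For each of 19938 genes the gap was the distance between the nearest arrays of the sides. For a gene higher in MSC it was the lowest MSC level minus the highest control level, and for a gene lower in MSC the lowest control level minus the highest MSC level, both on the log2 scale. A gene was counted when its gap was at least 1, which is 2-fold between the nearest arrays, and when both arrays of the higher side lay above a floor, the median level of the array. The floors were 6.29 for MSC without bFGF, 6.32 for MSC with bFGF, 6.46 for ES cells and 6.46 for osteoblasts. Of 10013 genes above the floor on both arrays of at least one side, 289 were higher in both MSC arrays (2.89%) and 288 were lower (2.88%).

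MSC are adherent stromal cells that can form bone, cartilage and fat, and in the marrow such cells supply haematopoietic cells with factors such as the Kit ligand. Cultured fibroblast-like cells often carry stress fibres of smooth muscle actin and lay down collagen-rich matrix, programmes that are driven by mechanical tension, TGF-beta and serum response factor. The integrated stress response is a separate programme, in which amino acid shortage or other stress raises the transcription factor ATF4, which in turn activates genes for amino acid uptake and synthesis.

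The gaps had a median of 1.29 among the genes higher in MSC and 1.51 among those lower, and they reached 6.80 and 5.33. A gap of at least 2, which is 4-fold, was met by 52 genes higher and 72 genes lower. Among the genes higher in MSC, 111 were under the floor on both control arrays and 145 were above it on both. Genes lower in MSC more often lay under the floor on the other side, 174 on both MSC arrays, against 76 that stayed above it on both. Levels under the floor depend on background, and the size of those gaps with them. The counts rest on requiring both arrays of a side. Without the osteoblast array 800 genes were higher and 985 lower, without the ES cell array 619 and 920, without MSC with bFGF 435 and 534, and without MSC without bFGF 392 and 359. Centring each array on its median moved MSC minus control up by 0.15 and gave 398 genes higher and 231 lower, so that 63.3% of the counted genes were higher in place of 50.1%.

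**Figure D1:**
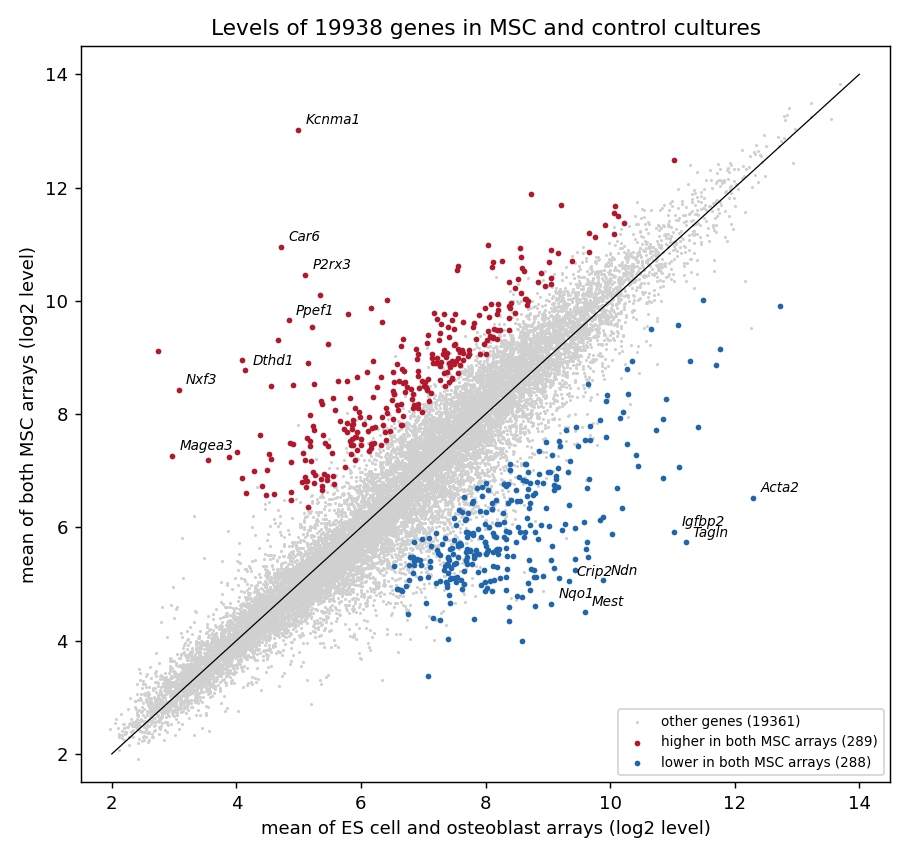
The mean log2 level of the 2 MSC arrays (vertical axis) is plotted against the mean log2 level of the ES cell and osteoblast arrays (horizontal axis) for 19938 genes, 1 point a gene, with the line of equal levels. The 289 genes higher in both MSC arrays (red) and the 288 lower (blue) lie away from the line, with Kcnma1 and Acta2 at the extremes, and named points are genes with the largest gaps.

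The MSC arrays lay closer to each other than the control arrays did. The median absolute difference between the MSC arrays was 0.19 for genes higher in MSC and 0.39 for genes lower, and between the control arrays 0.33 and 0.64. Over the 10013 genes above the floor these medians were 0.17 between the MSC arrays and 0.43 between the controls. Among the genes higher in MSC, 6 differed by 1 or more between the MSC arrays, 4 of them lower with bFGF. Among those lower in MSC, 25 did, 22 of them higher with bFGF. Where the counted gene had another probe set, that probe set was also separated in the same direction (a gap above 0) for all probe sets of 14 of 17 genes higher and 14 of 16 genes lower. At the gap of at least 1 that the counting used, this held for 10 of the 17 and 6 of the 16.

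Markers of other cells were not spread evenly over the arrays, and this bears on several gene groups below. Of 26 macrophage markers, 12 were above the floor in MSC without bFGF, 18 in MSC with bFGF, 17 in ES cells and 23 in osteoblasts. Their log2 summed levels were 11.27, 13.97, 12.60 and 15.74 in the same order. Pluripotency markers were above the floor for 17 of 22 in ES cells, 5 in osteoblasts, 5 in MSC without bFGF and 6 in MSC with bFGF. The ES cell array also held stromal transcripts, with Col1a1 (type I collagen) at 10.92, Thy1 (CD90) at 8.82 and the PDGF receptor Pdgfra at 8.14. Of 12 measured osteoblast markers 5 were above the floor in osteoblasts, 4 in ES cells and 5 in each MSC array. Their log2 summed level was 13.83 in osteoblasts, above 12.41 in ES cells and 11.68 and 11.43 in MSC without and with bFGF. Among those under the floor in osteoblasts were Sp7 at 5.36, Alpl at 6.03 and Ibsp at 4.53. The part of other cells in the results was not tested. Fewer cells of a type and less RNA per cell cannot be told apart in such samples.

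The stromal markers leaned lower in MSC than in the controls, and Kitl was an exception. Kitl, the ligand of the Kit receptor and a marker of marrow niche stroma, stood at 8.73 and 9.15 in MSC without and with bFGF and at 6.21 and 6.17 in ES cells and osteoblasts, and the log2 levels of the other genes below are given in the same order of arrays. Its gap was 2.53. Thy1, a surface protein used to define MSC, was under the floor on both MSC arrays at 6.04 and 5.54 and above it on both controls at 8.82 and 8.86. Mcam (CD146), an adhesion protein of stromal and perivascular cells, was lower too, at 6.23 and 6.70 against 8.15 and 8.87. Of 23 measured stromal markers, 12 had both MSC arrays below both controls and 1 had them above, at gaps of any size. With the floor kept 11 were below and 1 above, beside 2022 below and 3554 above of all 10013 genes. The median difference of the means over the 23 was -0.68. Of the 23, 19 were above the floor on both arrays of a side, 1 was counted as higher (Kitl) and 2 as lower (Thy1 and Mcam). Without the ES cell array 9 would be lower and without MSC with bFGF 5.

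The largest gap among genes higher in MSC was that of an ion channel. Kcnma1, the pore-forming subunit of the BK calcium- and voltage-gated potassium channel, stood at 12.85 and 13.18 in the MSC arrays and at 3.93 and 6.05 in the controls, a gap of 6.80 or 112-fold. P2rx3, an ATP-gated cation channel of sensory neurons, stood at 10.58 and 10.33 against 5.30 and 4.92. Both genes were under the floor in both control cultures. A further probe set of each gene, all under the floor, did not reach the gap of 1. That of Kcnma1 lay at 5.50 and 5.12 against 4.95 and 5.20, and that of P2rx3 at 5.56 and 5.70 against 5.49 and 5.20, with gaps of -0.08 and 0.07. The MSC levels above the floor were thus found on 1 of 2 probe sets of each gene, and how much of the transcript it covers was not tested. Of 46 ion channels and pumps 17 were above the floor, 2 were higher (Kcnma1 and P2rx3) and 2 lower (the calcium-activated chloride channel Ano1 and the potassium channel Kcnk1). Without the ES cell array 8 would be lower and without the osteoblast array 5.

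Car6, a secreted carbonic anhydrase of saliva, had levels of 11.13 and 10.78 in MSC and 4.03 and 5.40 in the controls, with a gap of 5.37. It was the single gene counted among 16 measured carbonic anhydrases, of which 3 would be lower without the osteoblast array and 1 without the ES cell array. Nxf3, an X-linked member of the RNA export factor family with a role in the testis, had levels of 8.57 and 8.29 against 3.02 and 3.13. Magea3, a member of the cancer-testis MAGE family, had levels of 7.17 and 7.36 against 2.86 and 3.09. Of 24 measured germline and testis genes, Nxf3 was the 1 counted as higher and 0 were lower, with a median difference of the means of -0.05. Ppef1, an X-linked protein phosphatase with EF hands, had levels of 9.48 and 9.82 against 4.20 and 5.48. Car6, Nxf3, Magea3 and Ppef1 were under the floor in both controls and above it in both MSC arrays. Near-identical family members could share probes with Magea3, and with the trypsinogen genes Try5 and Try10, the Xlr gene and the MHC gene H2-M10.1, which are uncertain for that reason. The predicted gene Gm773, left out by the naming rule and added after its values were seen, had a gap of 6.32, with levels of 9.10 and 9.14 against 2.71 and 2.78.

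Ostn (osteocrin), a peptide made by osteoblasts and muscle, stood at 9.52 and 9.09 in MSC against 3.83 in ES cells and 5.51 in osteoblasts. Il33, an alarmin cytokine of stromal cells, stood at 11.28 without and 8.91 with bFGF against 5.21 and 5.46. The MSC arrays differed by 2.38 for Il33, yet both lay above both controls. Il34, a ligand of the CSF1 receptor, was also higher at 8.86 and 8.26 against 5.97 and 7.09, and the monocyte attractant Ccl7 was lower at 5.78 and 7.01 against 9.29 and 9.39. Of 36 measured chemokines and cytokines 21 were above the floor, 2 were counted as higher (9.52%) and 1 as lower (4.76%), against 2.89% and 2.88% of all genes. At gaps of any size 12 had both MSC arrays below both controls and 4 above, and with the floor kept 3 and 4. Their median difference of the means was -0.34. Without the ES cell array 6 would be lower, and without MSC without bFGF 6 higher. Mamdc2, a MAM-domain protein, had a gap of 3.81, Steap1, a metalloreductase, of 3.38, Gsto2, an omega-class glutathione transferase, of 3.02 and Nrcam, a neuronal cell adhesion molecule, of 2.67. Dthd1, Tmem74, Iqcm and AA467197 completed the 20 largest gaps, which ran from 2.53 to 6.80.

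**Figure D2:**
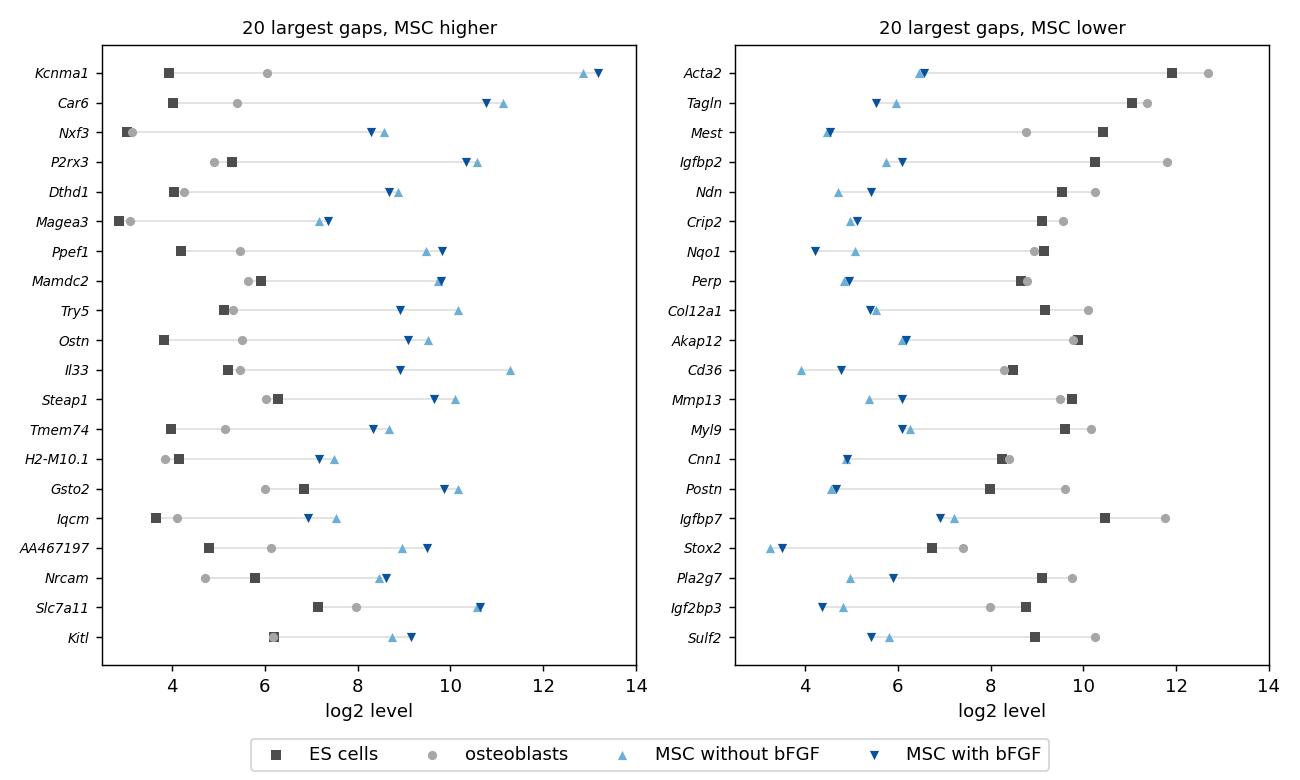
Log2 levels on the 4 arrays are plotted for the 20 genes with the largest gaps in each direction, 1 row a gene, ordered by gap. On the left both MSC arrays (triangles) lie above both controls (square, ES cells; circle, osteoblasts), and on the right below them, with Il33 the gene on the left whose MSC arrays lie farthest apart.

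Genes of the integrated stress response and of amino acid supply were higher in MSC as a group. Of 28 measured members, 26 were above the floor on both arrays of a side, 12 were counted as higher and 0 as lower, and 23 had both MSC arrays above both controls. Of all 10013 genes above the floor, 3554 were higher at any gap above 0 and 2022 lower. The median difference between the means of the sides was 1.38 over the 28 members, against 0.00077 over all genes. Over members and genes above the floor it was 1.47 against 0.12. Without the osteoblast array 19 members would be higher and 1 lower. Among the factors of the response, Atf4 stood at 10.31 and 10.22 in MSC against 8.68 and 9.22, with a gap of 1.00. Ddit3 (CHOP), a transcription factor of the prolonged response, stood at 9.73 and 9.82 against 6.65 and 8.02. Trib3, a pseudokinase induced by both, stood at 10.56 and 10.54 against 6.70 and 8.38. ES cells had the lowest level of all 3 genes, with osteoblasts between them and MSC.

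Uptake and synthesis genes of the same list were separated too. Slc7a11, the cystine importer of system xc-, stood at 10.58 and 10.63 against 7.14 and 7.97, a gap of 2.61. Slc6a9, a glycine transporter, stood at 9.80 and 9.74 against 7.04 and 7.98. Sesn2, a leucine sensor that restrains mTORC1, stood at 10.71 and 10.83 against 8.42 and 8.71. Aldh1l2, a mitochondrial folate enzyme, stood at 9.75 and 9.51 against 5.05 in ES cells and 7.62 in osteoblasts. The serine and one-carbon enzymes Psat1, Shmt2 and Mthfd2, the cationic amino acid transporter Slc7a1 and the lipoprotein receptor Vldlr were also counted. Not every member was separated. Asns, asparagine synthetase and a standard target of ATF4, stood at 10.79 and 10.89 against 10.49 and 11.04, within the range of the controls. Atf3 had 10.17 and 10.66 against 6.78 and 9.55, a gap below 1.

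**Figure D3:**
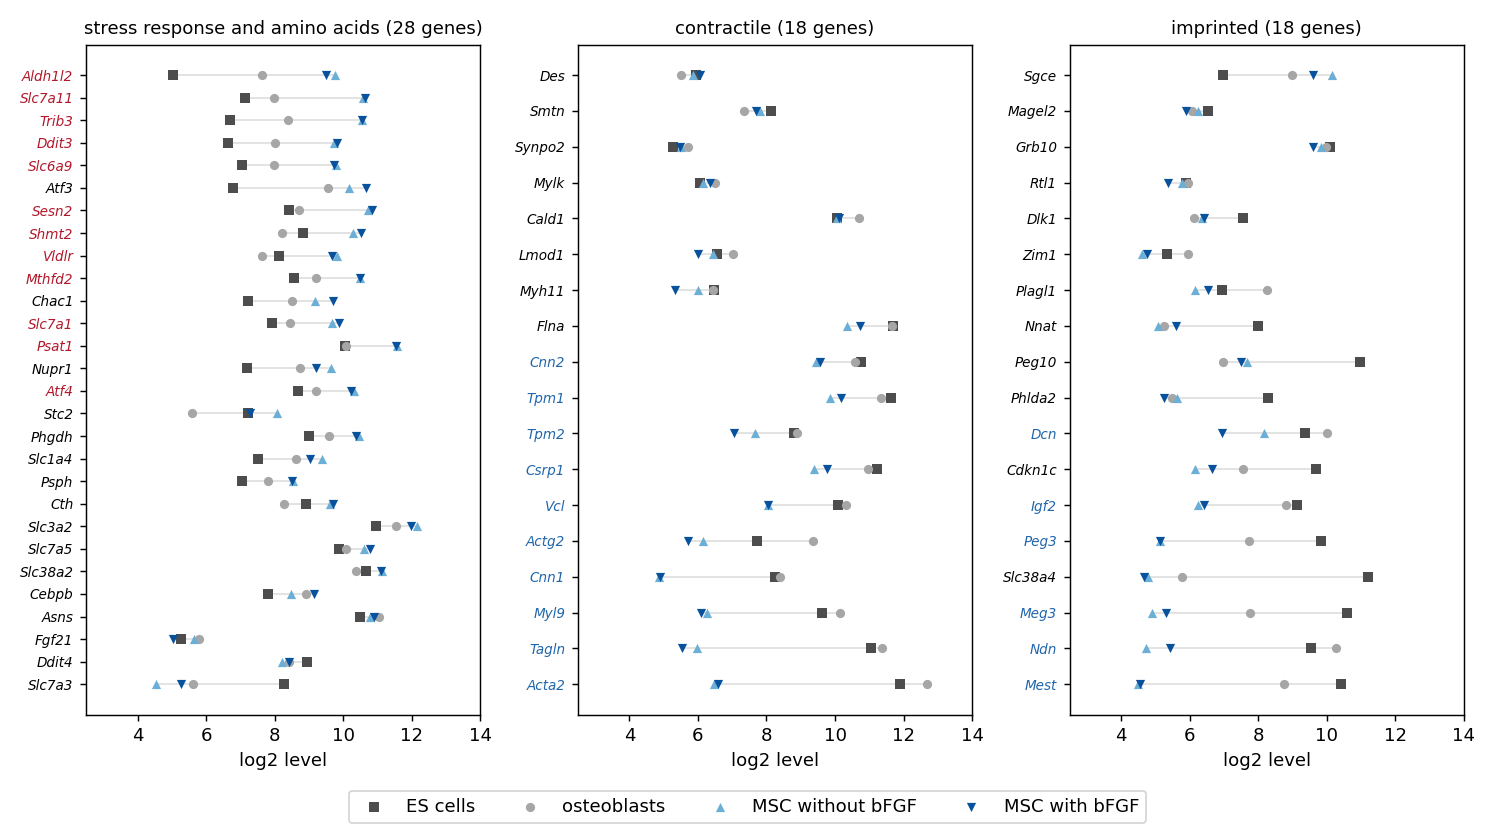
Log2 levels on the 4 arrays are plotted for all measured members of 3 lists, ordered by the difference between the means of the sides, with names in red for genes counted as higher in MSC and in blue for those counted as lower. In the left panel 12 of 28 names are red, in the middle panel 10 of 18 are blue and in the right panel 6 of 18 are blue, and Asns on the left shows overlapping arrays.

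Promoter sequences are shown for members of these groups that hold a motif of the factors known for the programme. The RefSeq promoter table of the mouse assembly GRCm38.p6 held 217 of the 289 genes higher in MSC and 219 of the 288 lower, and the 250 bases before each start were searched on both strands. The composite element bound by ATF4 with a C/EBP partner was searched as TGATGNAA. It was present in 2 of 11 counted stress-list genes with a promoter in the table, in 5 of 13 members that were not counted, in 10 of the 217 genes higher in MSC (4.61%) and in 491 of 15614 measured genes with a promoter (3.14%). The counted genes with it were Slc7a11, at -66 and -47 from the start, and Vldlr, at -200. Capitals mark the matches in the sequences, which read 5′ to 3′ in the direction of the gene. Slc7a11 lies at chr3:50443614-50443863 on the minus strand and Vldlr at chr19:27216770-27217019 on the plus strand.
Slc7a11: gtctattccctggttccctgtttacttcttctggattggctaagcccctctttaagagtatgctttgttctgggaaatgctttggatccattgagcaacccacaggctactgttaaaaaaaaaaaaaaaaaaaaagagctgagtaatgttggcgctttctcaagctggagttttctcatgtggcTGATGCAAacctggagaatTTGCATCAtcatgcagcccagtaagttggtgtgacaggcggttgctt
Vldlr: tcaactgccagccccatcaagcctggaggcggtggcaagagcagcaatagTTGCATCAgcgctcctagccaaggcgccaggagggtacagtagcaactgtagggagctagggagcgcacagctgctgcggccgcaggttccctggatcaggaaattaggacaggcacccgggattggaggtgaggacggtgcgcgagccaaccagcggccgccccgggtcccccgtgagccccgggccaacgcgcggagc
A match is a description of letters, and members that were not counted, Asns and Atf3 among them, held it as well.

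The contractile genes of smooth muscle and stress fibres were lower in MSC and held the largest gaps of that direction. Of 18 measured members, 14 were above the floor, 10 were counted as lower and 0 as higher, with a median difference of the means of -1.31. Acta2, smooth muscle actin, stood at 6.46 and 6.58 in MSC and at 11.91 and 12.68 in the controls, a gap of 5.33 or 40.3-fold. Tagln (SM22), an actin-binding protein, stood at 5.96 and 5.52 against 11.05 and 11.37. Myl9, the regulatory light chain of smooth muscle myosin, stood at 6.26 and 6.09 against 9.61 and 10.16. Cnn1, calponin of smooth muscle, stood at 4.88 and 4.91 against 8.25 and 8.40. The control levels of these genes were high in ES cells as well as in osteoblasts. Vcl (vinculin), Actg2, Csrp1, Cnn2, Tpm1 and Tpm2 were also counted, and Vcl stood at 8.03 and 8.04 against 10.10 and 10.32. The filamin Flna, at 10.34 and 10.72 against 11.69 and 11.65, had a gap just under 1. Smtn and Des, smoothelin and desmin, were not separated, and Des was under the floor on every array.

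The CArG box, the binding motif of serum response factor, was searched in the same windows. It was present in 3 of 8 counted contractile genes with a promoter in the table and in 0 of 7 not counted. Over all genes lower in MSC it was present in 10 of 219 (4.57%), over all genes higher in 3 of 217 (1.38%), and over all measured genes with a promoter in 227 of 15614 (1.45%). The matches lay at -161 in Myl9, -227 in Vcl and -56 in Cnn2. Myl9 lies at chr2:156775214-156775463, Vcl at chr14:20929148-20929397 and Cnn2 at chr10:79988350-79988599, all on the plus strand, and capitals again mark the match.
Myl9: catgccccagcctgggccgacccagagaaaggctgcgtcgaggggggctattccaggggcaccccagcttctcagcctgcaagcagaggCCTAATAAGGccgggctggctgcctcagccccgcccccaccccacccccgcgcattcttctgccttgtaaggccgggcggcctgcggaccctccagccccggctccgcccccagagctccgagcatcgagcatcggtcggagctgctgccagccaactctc
Vcl: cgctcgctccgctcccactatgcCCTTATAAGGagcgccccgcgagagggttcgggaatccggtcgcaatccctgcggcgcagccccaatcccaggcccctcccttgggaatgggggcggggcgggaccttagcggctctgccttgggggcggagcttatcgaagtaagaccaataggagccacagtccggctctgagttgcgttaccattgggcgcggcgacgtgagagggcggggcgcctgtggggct
Cnn2: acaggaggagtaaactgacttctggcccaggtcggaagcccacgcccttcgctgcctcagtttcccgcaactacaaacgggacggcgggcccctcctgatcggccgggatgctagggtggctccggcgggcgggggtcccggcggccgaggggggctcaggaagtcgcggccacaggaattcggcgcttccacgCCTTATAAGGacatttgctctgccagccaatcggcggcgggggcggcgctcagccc
The windows of the remaining counted contractile genes in the table did not hold these letters, which says nothing of sites elsewhere.

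Counted genes of several matrix classes were mostly lower in MSC. Of 20 collagen chains 18 were above the floor, 7 were lower and 0 higher. Their log2 summed levels were 13.03 and 12.62 in MSC without and with bFGF, 13.08 in ES cells and 14.82 in osteoblasts. The sum in MSC without bFGF was thus near that in ES cells. Col12a1, a fibril-associated collagen, stood at 5.54 and 5.41 against 9.18 and 10.10. Col1a1 stood at 9.23 and 9.06 against 10.92 and 12.60, above the floor on every array. Basement membrane chains were among the 7 as well, with Col4a1 at 7.28 and 6.81 against 8.36 and 9.98. Col6a3, Col18a1, Col4a2 and Col5a1 were the others. Not all collagens were separated: Col1a2 had 12.16 and 11.66 against 10.89 and 12.98, and Col3a1 8.05 and 6.85 against 8.52 and 11.06, both chosen after their values were seen. The count of 7 became 4 with the arrays centred on their medians and 14 without the ES cell array.

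Of 30 glycoproteins and proteoglycans of the matrix 24 were above the floor, 11 were lower and 0 higher, and without the ES cell array 20 would be lower. Postn (periostin), a matricellular protein of periosteum, stood at 4.56 and 4.68 in MSC against 8.0 and 9.60. Nid2 (nidogen 2) stood at 5.50 and 5.84 against 9.31 and 8.84. The thrombospondins Thbs1 and Thbs2 were lower by gaps of 2.39 and 2.76. Enzymes that trim and cross-link collagen followed in part, with 3 of 18 lower and 0 higher (8 lower without the ES cell array). Their log2 summed levels were 12.78 and 12.53 in MSC without and with bFGF, 12.78 in ES cells and 14.05 in osteoblasts. Lox (lysyl oxidase) stood at 7.14 and 7.01 against 9.14 and 11.76, Bmp1 (procollagen C-proteinase) at 7.83 and 7.35 against 9.80 and 10.06, and its enhancer Pcolce2 at 4.58 and 5.04 against 8.04 and 6.80. Among 22 matrix proteases and inhibitors 4 were lower and 1 higher, while 10 would be lower without the ES cell array, and 7 lower and 4 higher without the osteoblast array. With one or the other MSC array left out, 2 would be higher. The collagenase Mmp13 had levels of 5.39 and 6.10 against 9.76 and 9.50, and the stromelysin Mmp3 had 4.15 and 3.85 against 10.15 and 7.03. Mmp11, also a stromelysin by name, was the one that was higher, at 8.96 and 8.83 against 7.51 and 7.32.

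Targets of TGF-beta and of the mechanosensitive coactivator YAP leaned lower in MSC but did not move as one. Of 21 measured members, all above the floor, 12 had both MSC arrays below both controls and 2 had them above. Over all 10013 genes above the floor these counts were 2022 and 3554. The median difference of the means was -0.55. At the gap of 1, 4 were lower, Acta2 among them, and 1 was higher. Without the ES cell array 7 would be lower, and without the osteoblast array 2 would be higher. Ccn2 (CTGF) stood at 8.61 and 9.11 in MSC against 11.09 and 12.31, Fstl1, a follistatin-like glycoprotein, at 8.35 and 8.18 against 10.29 and 11.49, and Inhba, the activin A subunit, at 8.23 and 8.49 against 10.33 and 10.23. Ankrd1, a cardiac ankyrin repeat protein and a standard YAP target, ran the other way at 11.77 and 12.00 against 7.82 and 9.64. Growth regulators of bone and mesenchyme added Bmp4 at 5.82 and 5.25 against 8.68 and 7.72, its target Id3 at 6.49 and 6.98 against 8.86 and 9.33, and the Wnt receptor Fzd7 at 7.05 and 6.36 against 9.55 and 8.78. These were the 3 of 40 Wnt and BMP genes that were counted, with 22 of the 40 above the floor. Without the osteoblast array 12 would be lower, and without the ES cell array 6, with 1 higher. At gaps of any size 22 of the 40 had both MSC arrays below both controls and 1 above. With the floor kept 15 Wnt and BMP genes were below and 1 above, beside the 2022 and 3554 of all genes. The list does not hold every Wnt gene: Rspo3 and Dact1 were lower as well, by gaps of 2.69 and 2.26, and Wnt7b was higher. Of 22 FGF ligands and receptors 1 was counted, Fgfr1, which was lower at 7.76 and 8.03 against 9.80 and 9.87. Without the ES cell array 4 FGF genes would be lower and 1 higher, and without the osteoblast array 3 lower.

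The insulin-like growth factor axis was lower for 6 of 14 members, all 14 of them above the floor, and higher for 0. The binding protein Igfbp2 stood at 5.76 and 6.08 in MSC against 10.26 and 11.80, and Igfbp7 at 7.21 and 6.91 against 10.46 and 11.75. The ligand Igf2 stood at 6.25 and 6.43 against 9.12 and 8.82. Igfbp4, Igfbp5 and Igfbp3 were the other 3, with gaps of 2.29, 1.61 and 1.17.

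Igf2 is also an imprinted gene, and of 18 measured genes of the imprinted growth list 12 were above the floor, 6 were lower and 0 higher. The median difference of the means over the 18 was -1.41. Mest (PEG1), a hydrolase expressed from the paternal allele in embryonic mesoderm, stood at 4.48 and 4.54 in MSC against 10.42 in ES cells and 8.76 in osteoblasts. Ndn (necdin), a growth suppressor, stood at 4.71 and 5.42 against 9.53 and 10.25. Peg3, a zinc finger protein, stood at 5.14 and 5.12 against 9.82 and 7.74, and the noncoding RNA Meg3 at 4.90 and 5.32 against 10.58 and 7.77. For these 4 genes both MSC arrays were under the floor. Dcn (decorin) was the remaining member counted, and Sgce, an imprinted sarcoglycan, went the other way at 10.14 and 9.61 against 6.98 and 8.98, with a gap below 1. Without the osteoblast array 12 members would be lower. Igf2bp3, an oncofetal RNA-binding protein that is not imprinted, was lower as well at 4.83 and 4.37 against 8.77 and 7.99.

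Cell division genes were lower in MSC. Of 24 measured mitotic genes 18 were above the floor, 11 were lower and 0 higher, and 23 had both MSC arrays below both controls. The median difference of the means was -2.11, the lowest of the lists named here. Plk1, a mitotic kinase, stood at 5.32 and 6.65 against 10.25 and 8.61, Prc1, a spindle midzone protein, at 6.06 and 6.64 against 9.19 and 8.21, Ccnb2, a mitotic cyclin, at 5.65 and 6.52 against 8.78 and 7.81, and Kif11, a spindle motor, at 5.01 and 6.23 against 8.89 and 7.48. In all 4, MSC without bFGF had the lowest level, MSC with bFGF the next, then osteoblasts, and ES cells the highest. Only 2 of 25 replication genes were counted as lower, Uhrf1 and Rrm2, although 18 had both MSC arrays below both controls. With the floor kept, 18 mitotic and 17 replication genes were lower at any gap above 0, as were 2022 of all 10013 genes. The replication count would be 20 lower without the osteoblast array, and without MSC with bFGF 10 lower and 1 higher. The mitotic count was 4 with the floor at the 75th percentile of each array and 23 without the osteoblast array. Top2a, counted among the 11, had a further probe set at 2.59 and 2.96 against 3.48 and 2.22, which was under the floor and not separated. Against this pattern the transcription factor Myc was higher in MSC, at 10.78 and 11.03 against 9.05 and 9.07, next to its neighbour on the chromosome, Pvt1, whose second probe set was not separated. Gadd45a, a stress-induced growth arrest gene, was higher at 11.96 and 11.42 against 8.99 and 9.42, and Perp, a p53 target of desmosomes, was lower at 4.84 and 4.94 against 8.65 and 8.79.

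**Figure D4:**
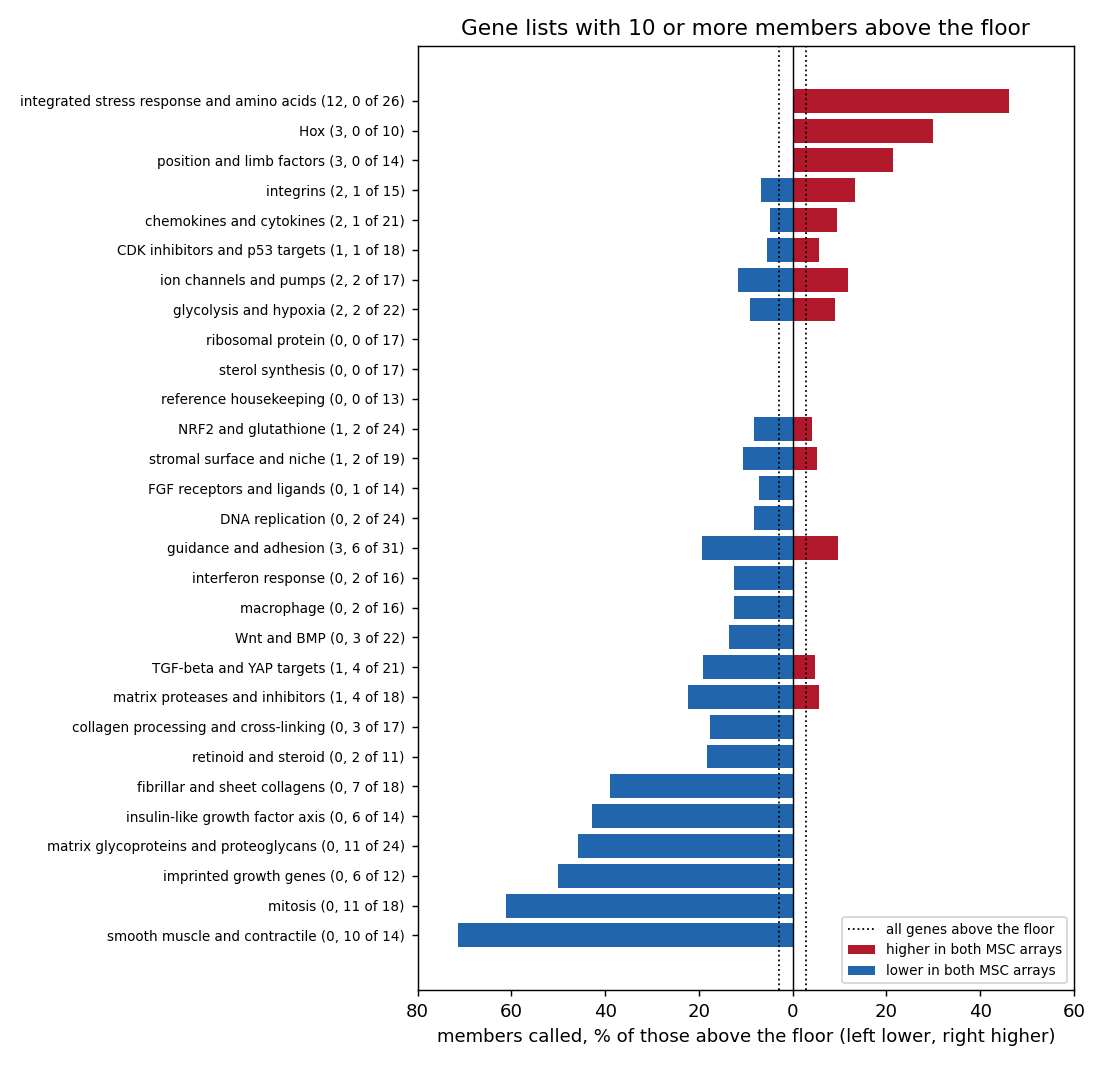
For each list with 10 or more members above the floor, bars give the percentage of those members counted as higher (right, red) or lower (left, blue) in both MSC arrays, and dotted lines give the same for all genes, 2.89% and 2.88%. The stress response list has the longest bar to the right (12 of 26) and the contractile list the longest to the left (10 of 14), while the ribosomal, sterol and housekeeping lists have none.

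Position-related transcription factors were higher in small number. Of 31 measured genes of the Hox list, which does not hold every Hox gene, 10 were above the floor, and 3 of them were higher and 0 lower: Hoxd8 at 7.64 and 7.51 against 5.48 and 4.79, Hoxc9 at 7.77 and 7.59 against 6.14 and 5.73, and Hoxc10 at 7.08 and 6.56 against 5.44 and 4.83. Hoxc13, which the list does not hold, was higher as well at 6.63 and 7.19 against 5.53 and 5.36. Hox genes encode homeodomain factors that record position along the body axis. Shox2, a factor of the proximal limb, stood at 6.70 and 6.90 against 4.91 and 5.21, Meis2, a Hox partner, at 8.55 and 8.26 against 6.05 and 6.97, and Emx2 at 6.88 and 6.56 against 5.39 and 5.35. These 3 of 25 limb and position genes were higher and 0 lower. With the floor at the 75th percentile 0 members of the Hox list and 1 of the limb and position list would be higher. Without the ES cell array 6 Hox members would be higher, and 5 limb and position members would be lower beside the 3 higher. Limb and position members lower would number 2 without the osteoblast array or without MSC without bFGF. The median difference over that list was -0.09 as deposited, 0.04 with quantile normalization repeated and 0.06 with centred arrays, so the list as a whole had no stable direction.

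Surface and adhesion genes went both ways, with more of them lower at gaps of any size. Of 39 guidance and adhesion genes 18 had both MSC arrays below both controls and 6 had them above. With the floor kept 15 were below and 6 above, beside 2022 below and 3554 above of all 10013 genes. The median difference of the means was -0.66. At the gap of 1, 3 were higher and 6 lower. Without the osteoblast array 5 would be higher and 14 lower, and without the ES cell array 10 would be lower. The semaphorin Sema5a and the ephrin receptor Epha2 were higher beside Nrcam. The secreted guidance protein Slit3 had 5.80 and 5.47 in MSC against 8.68 and 7.97, Sema3e had 5.34 and 4.42 against 7.55 and 8.66, and the mesenchymal cadherin Cdh11 had 8.18 and 7.64 against 10.00 and 11.70. The integrins Itga3 and Itgb7 were higher, by gaps of 1.20 and 1.13, and Itga8 lower, by 1.72, of 20 measured. Integrins lower would number 6 without the ES cell array, 3 without the osteoblast array and 2 without MSC with bFGF. At gaps of any size 9 of the 20 had both MSC arrays below both controls and 3 above, with a median difference of -0.61. With the floor kept 7 integrins were below and 3 above, beside the same counts of all genes. Few oxidative stress genes were counted. Nqo1, a quinone reductase and a standard NRF2 target, stood at 5.08 and 4.23 in MSC against 9.15 and 8.95, and the carbonyl reductase Cbr3 at 4.72 and 5.28 against 7.01 and 8.29. Slc7a11, another NRF2 target, was higher. At gaps of any size, 12 of 27 NRF2 and glutathione genes had both MSC arrays above both controls and 6 below. With the floor kept 12 were above and 5 below, beside 3554 above and 2022 below of all 10013 genes. The median difference of the means was 0.26. Of the 27, 24 were above the floor, and 1 was counted as higher (4.17%) and 2 as lower (8.33%). Over all genes above the floor these shares were 2.89% and 2.88%. Without the osteoblast array 5 would be higher and 3 lower, without the ES cell array 2 higher and 5 lower, and without MSC with bFGF 2 higher and 2 lower.

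Some of the lower genes are known from macrophages and adipocytes. Cd36, a fatty acid receptor of macrophages and adipocytes, stood at 3.91 and 4.79 in MSC against 8.48 and 8.29, and Pla2g7, a lipoprotein-associated phospholipase made by macrophages, at 4.96 and 5.91 against 9.11 and 9.75. Myeloid genes outside the marker lists also went the other way, Trem3 at 7.44 and 6.93 against 4.51 and 5.70, and Cd300e, described at the end. Of 13 measured adipocyte markers 3 were above the floor, 2 were lower and 0 higher. Of 26 macrophage markers 16 were above the floor, 2 were counted as lower (12.5%, against 2.88% of all genes) and 0 as higher. The 2 were Mrc1 at 4.63 and 4.92 against 6.76 and 10.40 and Adgre1 (F4/80) at 5.69 and 7.71 against 9.05 and 11.16. Without the ES cell array 19 macrophage markers would be lower, and without MSC with bFGF 6. The part of macrophage content in these differences was not tested. Of 23 interferon response genes Gbp3 and Irf1 were lower and 0 higher, while without the ES cell array 7 would be lower, without MSC with bFGF 4 would be lower and without the osteoblast array 4 would be higher. Among genes that every cell uses, 0 of 17 ribosomal protein genes and 0 of 13 housekeeping genes were counted in either direction, and 0 of 17 sterol synthesis genes. At gaps under 1 the ribosomal genes were still shifted, with both MSC arrays above both controls for 14 of 17 and below for 0. Their median difference of the means was 0.36, against 0.12 over all genes above the floor. Of the housekeeping genes 5 lay above both controls and 2 below, and of the sterol genes 0 above and 6 below. Over all 10013 genes above the floor, 3554 lay above both controls and 2022 below, and the housekeeping counts were near these shares. Without the osteoblast array 1 housekeeping gene would be higher and 3 sterol genes lower, and without MSC with bFGF 2 sterol genes would be lower.

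The Y-linked translation factor Eif2s3y was lower in MSC, at 3.91 and 4.15 against 7.97 in ES cells and 6.81 in osteoblasts. Uty, another Y-linked gene, had 3.61 and 4.45 against 7.22 and 6.34, with the osteoblast array just under its floor. Kdm5d was under the floor on every array, at 4.80 and 4.19 against 4.83 and 5.95. Xist, the RNA of the inactive X chromosome, did not separate the sides, at 5.50 and 8.09 against 7.23 and 7.87. The sex of the mice is not given in the labels, and its part in the differences was not tested.

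The genes that separated the sides were not spread evenly over chromosomes, a look taken after the values had been seen. Of 338 genes of chromosome 14 above the floor, 21 were lower in MSC (6.21%), Nid2, Bmp1, Bmp4 and Vcl among them, and 4 were higher, with Kcnma1 the leading gene. Of 364 genes of chromosome 19, 23 were higher (6.32%), Mamdc2, Il33, Gsto2, Psat1, Vldlr and Ankrd1 among them, and 7 were lower, with Acta2 leading. On chromosome 15, 22 of 411 were higher (5.35%), among them Atf4, Myc, Hoxc9 and Hoxc10. A small shift lay under these counts. Over 10051 genes whose mean level exceeded the mean floor, the median difference between the means of the sides was 0.10. It was -0.28 for 342 genes of chromosome 14, with 26.6% of them above 0, and 0.31 for 370 genes of chromosome 19, with 70.5% above 0. For 276 genes of the X chromosome it was -0.22, and for the other 17 chromosomes it ran from -0.00 to 0.22.

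All 4 pairs of an MSC and a control array, which share arrays, gave medians between -0.34 and -0.23 for chromosome 14 and between 0.31 and 0.37 for chromosome 19. Between the controls, osteoblasts minus ES cells, the medians were 0.03 and 0.00 on these chromosomes, and between the MSC arrays, with minus without bFGF, 0.08 and -0.01. With each chromosome divided into 4 equal runs of genes, the medians along chromosome 14 were -0.21, -0.16, -0.33 and -0.34, and along chromosome 19 they were 0.30, 0.22, 0.47 and 0.33. With quantile normalization repeated the medians were -0.29 for chromosome 14, 0.26 for chromosome 19 and -0.24 for the X chromosome. These shifts are well under the gap of 1 that a gene had to reach, and their source was not tested.

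**Figure D5:**
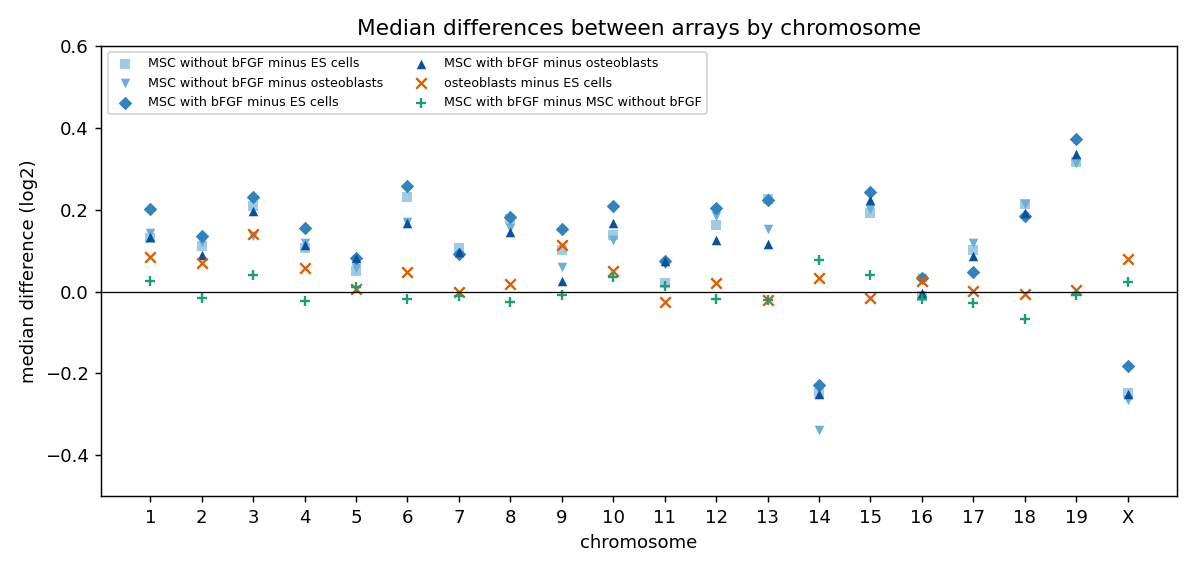
The median log2 difference over the genes of each chromosome is plotted for the 4 pairs of an MSC and a control array (blue symbols), for osteoblasts minus ES cells (crosses) and for MSC with minus without bFGF (plus signs). The blue symbols lie below 0 on chromosomes 14 and X and are highest on chromosome 19, where the pairs run from 0.31 to 0.37, while crosses and plus signs stay between -0.07 and 0.14 on every chromosome.

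Neighbouring genes were counted together in 11 pairs higher and 8 pairs lower in MSC. Gsto1 and Gsto2 on chromosome 19, Steap2 and Steap1 on chromosome 5, Arap2 and Dthd1 on chromosome 5, and Try5 and Try10 on chromosome 6 were higher as pairs. The second probe set of Steap2 was not separated, at 4.68 and 4.51 against 4.52 and 4.56. Igfbp2 and Igfbp5 on chromosome 1, Col4a1 and Col4a2 on chromosome 8, and Cbr1 and Cbr3 on chromosome 16 were lower as pairs. At the edge of the rule, Got1 and Smim8 lay just inside with gaps of 1.0005 and 1.0011 for genes higher in MSC, and Mrgbp and Cflar just outside with 0.9995 and 0.9991. For genes lower in MSC, Ctsf and Tnfrsf21 lay just inside at 1.0014 and 1.0036, and Iqgap3 and Gas2l3 just outside at 0.9995 and 0.9982.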

How the data were processed

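RNA of 4 cultures was read on 1 Affymetrix whole-transcript array each. The deposited values are log2 levels per probe set, made by the authors with Affymetrix Expression Console and RMA, per the submitters' processing notes. RMA corrects background, makes the distributions of arrays alike and summarises probes, so a general shift in RNA per cell would not show. No header states the log2 scale, which was taken from the range of values, 1.40 to 14.28. Tool versions and build were not given in the sources used here.

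Of 35556 probe sets, 21789 had 1 gene symbol in the platform annotation, 1621 several and 12146 none, and those with 1 were used. Where a gene had several probe sets, as 999 of 19938 did, that of highest average level represented it. Counting followed a gap of at least 1 and a floor at the median, percentile 50, of each array's probe sets with 1 symbol. The median array levels over all probe sets were 5.90 and 5.84 for MSC without and with bFGF, 5.96 for ES cells and 5.93 for osteoblasts. The number of arrays limits the precision.

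The 43 gene lists held 968 symbols, 892 of them measured, 6 through older names, with 24 in several lists. The comparison and the lists were chosen with earlier results of these data known. Named genes are the 20 largest gaps each way, after leaving out predicted genes, small RNAs and receptor and immunoglobulin families, up to 4 counted and 2 uncounted members of each list, genes beside the threshold, counted neighbours and sex-linked genes. Gm773, Col1a2, Col3a1, some counted members beyond 4 of a list and the chromosome analysis were added after values were seen. Chromosomes and promoters came from RefSeq tables of GRCm38.p6.

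Alternatives were another probe set rule, floor, scaling or threshold and leaving out each array. The counting code was run on simulated levels with small noise and planted shifts well above the threshold. That checks the code and says nothing of how certain the calls are in these arrays. Python 3.11.15, numpy 2.4.6, pandas 2.3.3 and matplotlib 3.10.9 were used.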

Additional observations from a re-analysis of the deposited data

Results flagged for a closer look

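Probe sets that the platform annotation gives several gene symbols or none were not used in the comparison, and some separated the sides as well. Of 773 probe sets with several symbols above the floor on a side, 33 were higher in both MSC arrays (4.27%) and 19 lower (2.46%). Of 3403 with no symbol, 118 were higher (3.47%) and 24 lower (0.705%). The shares higher lie above 2.89% of named genes and the share of probe sets with no symbol that were lower lies under 2.88%. Which transcripts these are was not tested.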

How the results depend on the processing

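No paired analysis was possible because each group has 1 array. The counts of 289 genes higher and 288 lower became 189 and 118 with the floor at the 75th percentile, 3554 and 2022 for any gap above 0, 52 and 72 for a gap of at least 2, and 641 and 714 for a difference of means of at least 1. Leaving out each array in turn gave 392 to 800 higher and 359 to 985 lower, 12 to 19 stress genes higher, and lower 10 to 11 contractile genes, 7 to 14 collagens, 11 to 20 matrix glycoproteins, 6 to 7 genes of the insulin-like growth factor axis, 6 to 12 imprinted and 11 to 23 mitotic genes. Fewer arrays make the requirement easier by construction, so these ranges do not measure replicate error. Counts of smaller lists moved as much: over the arrays left out, 2 to 19 macrophage markers, 2 to 20 replication genes and 3 to 12 Wnt and BMP genes were lower. The higher floor left 0 genes of the Hox list higher. The mitotic count was 4 with the 75th-percentile floor and the collagen count 4 with centred arrays. The share of counted genes that were higher was 61.6% with the 75th-percentile floor, 63.7% for any gap above 0 and 63.3% with centred arrays, against 50.1% as deposited. Repeated quantile normalization gave 267 higher, 254 of them shared, and 282 lower, 266 shared. Averaging all probe sets of each gene gave 286 higher and 281 lower, 283 and 280 of them shared, and no floor gave 309 and 336. Of 90 named genes checked, 9 lost their call with centred arrays and 20 with the higher floor. Repeated quantile normalization took the call from 3 (Atf4 among them), and averaged probe sets from 2 (Stox2 and Top2a). In these settings 0 of the 90 changed direction. The 90 do not hold every gene named above. Further probe sets of Steap2, Pvt1 and Irf1 had gaps of -0.05, -0.36 and 0.03, and averaging left 1 interferon response gene counted as lower in place of 2. Many gaps rest on levels under the floor, where signal over background limits the size that can be read.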

Other observations

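Several genes outside the lists and the naming rule, chosen after their values were seen, separated the sides while the MSC cultures themselves differed. Emb (embigin), a membrane glycoprotein, stood at 4.37 without and 7.41 with bFGF against 10.93 in ES cells and 9.12 in osteoblasts. Cd300e, a receptor of myeloid cells, stood at 6.42 without and 9.0 with bFGF against 5.19 and 5.31, so that it was higher in both MSC arrays and highest with bFGF. Has2, a hyaluronan synthase, stood at 4.70 and 5.86 against 9.57 and 8.64, and Fabp5, a fatty acid-binding protein, at 5.47 and 6.57 against 9.0 and 9.05. Wnt7b, a Wnt ligand, was higher in MSC at 8.63 and 7.59 against 6.23 and 6.57.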
